A study of Mus musculus with 12 samples.

Results

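Expression of 8 genes linked to regulatory T cells was examined in 12 subcutaneous mouse tumors, in an RNA-sequencing experiment that lists 34678 gene symbols. The genes were taken by name from the gene symbols of the 12 expression tables, and all 8 were found. They are 3 transcription factors (Foxp3, Ikzf2 and Ikzf4), the interleukin-2 receptor chain Il2ra, the chemokine receptors Ccr4 and Ccr8, the cytokine Il10 and the chemokine Ccl22. The tumors were grown under the skin of C57BL/6 mice aged 5 to 8 weeks, of both sexes, from LLC1-shLkb1, a mouse Lewis lung carcinoma line in which an shRNA lowers the tumor suppressor Lkb1 (gene symbol Stk11), and all 4 arms carried this line. Mice received vehicle with a control antibody, palbociclib (an inhibitor of the cell cycle kinases CDK4 and CDK6, 100 mg/kg by mouth), an anti-PD-1 antibody (200 µg per mouse), or both drugs (the combination), for 2 weeks, and 3 tumors per arm were sequenced. Values are FPKM, fragment counts scaled by transcript length and by sequencing depth. The paper counts its samples as biological replicates, and each tumor was taken here to come from a different mouse. Every p-value measures the spread between these 3 tumors per arm. In whole tumor RNA, fewer cells of a type and less RNA per cell cannot be told apart.

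Regulatory T cells are CD4 T cells that restrain other T cells, and their identity depends on the transcription factor Foxp3. Most carry high levels of the interleukin-2 receptor alpha chain (CD25, the product of Il2ra), through which interleukin-2 signals by way of STAT5 to maintain Foxp3. Helios (Ikzf2) and Eos (Ikzf4) are zinc finger partners of Foxp3, Ccr4 and Ccr8 guide these cells into tissues and tumors, and interleukin-10 (Il10) is one of their inhibitory products, although macrophages and other cells also make it. Ccl22 is a ligand of Ccr4 and is produced mostly by dendritic cells and macrophages rather than by the regulatory T cells it attracts. Il2ra and Ikzf2 are also used by activated T cells, so that among the 8 genes Foxp3 is the most specific for the cell type.

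The stretches in front of the Foxp3 and Il2ra start sites are shown because Foxp3 defines the cells and because interleukin-2 acts on both genes through STAT5. The sequences are those of RefSeq on GRCm38.p6, 250 bases before each annotated start, read 5′ to 3′ on the + strand, which is the strand of both genes. Capitals mark a match to the STAT motif TTCNNNGAA.
Foxp3, first start, chrX:7579426-7579675: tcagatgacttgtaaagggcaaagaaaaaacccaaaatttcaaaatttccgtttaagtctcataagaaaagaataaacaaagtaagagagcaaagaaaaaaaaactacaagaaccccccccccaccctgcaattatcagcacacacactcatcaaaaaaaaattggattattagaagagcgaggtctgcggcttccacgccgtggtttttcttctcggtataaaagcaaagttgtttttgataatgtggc
Foxp3, second start, chrX:7580233-7580482: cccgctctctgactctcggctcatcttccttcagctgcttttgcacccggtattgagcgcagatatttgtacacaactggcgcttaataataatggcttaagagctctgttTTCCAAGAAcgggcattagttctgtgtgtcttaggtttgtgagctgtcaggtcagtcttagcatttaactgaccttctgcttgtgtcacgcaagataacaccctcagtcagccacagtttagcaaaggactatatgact
Il2ra, chr2:11642542-11642791: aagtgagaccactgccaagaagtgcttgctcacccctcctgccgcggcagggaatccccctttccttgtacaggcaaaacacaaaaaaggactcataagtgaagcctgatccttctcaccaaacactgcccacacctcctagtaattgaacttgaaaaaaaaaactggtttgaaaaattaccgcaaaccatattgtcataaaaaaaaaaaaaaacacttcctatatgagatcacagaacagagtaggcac

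By the GENCODE M21 annotation, the stretch before the first Foxp3 start lay within the gene with 109 of its 250 bases in exons, that before the second start lay wholly in an intron, and that of Il2ra lay outside the gene. Windows of 300 bases (250 before and 50 after the start) were found for 5 of the 8 genes, Foxp3, Il2ra, Ccr4, Ccr8 and Ccl22. They were searched on both strands for TTCNNNGAA, for the interferon response motif GAAANNGAA, for the NF-kB motif GGGNNTTTC and for the E2F motif TTTGGCGC. The 1 match was TTCCAAGAA, 139 bases before the second Foxp3 start, a sequence that reads as the motif on both strands. The shares of all 32851 promoter windows that hold each motif were 8.30% for TTCNNNGAA, 8.56% for GAAANNGAA, 4.36% for GGGNNTTTC and 0.514% for TTTGGCGC. The letters are a description of these windows and were not linked to any measurement.

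On GRCm38, all 8 genes are annotated as protein coding. Foxp3 lies at chrX:7573644-7595245 on the + strand, Ikzf2 at chr1:69531214-69687245 on the - strand and Ikzf4 at chr10:128630843-128645991 on the - strand. Il2ra lies at chr2:11642807-11693193 on the + strand and Il10 at chr1:131019845-131024974 on the + strand. Ccr4 and Ccr8 share a chromosome, at chr9:114490316-114504916 on the - strand and chr9:120092114-120094906 on the + strand, and Ccl22 lies at chr8:94745590-94751699 on the + strand. FPKM were given per gene, and no exon or isoform is resolved.

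Depth, estimated from the steps of low FPKM values, was about 14800000 to 20200000 fragments per tumor. Markers of cells other than T cells differed widely between tumors. Summed macrophage markers (5 genes) were at 74.9 to 360 FPKM in vehicle, 293 to 468 in palbociclib, 86.5 to 287 in anti-PD-1 and 204 to 462 in combination tumors. The sum of 9 dendritic cell markers, 56.5 to 83.0 FPKM over the 12 tumors, was mostly Fscn1, and the other 8 summed to 3.00 to 12.6 in vehicle, 10.2 to 17.9 in palbociclib, 2.71 to 5.36 in anti-PD-1 and 4.41 to 10.4 in combination tumors. Mast cell markers (5 genes) were at 0.352 to 25.5, 14.6 to 106, 0.0945 to 9.05 and 2.44 to 23.0 FPKM in the same order. Neutrophil markers (4 genes) summed to 29.2 to 504 FPKM in vehicle tumors, with vehicle 3 the highest of the 12, and to 13.7 to 29.9 in palbociclib tumors. They were at 43.2 to 254 in anti-PD-1 and 12.8 to 79.6 in combination tumors. Carcinoma markers (3 genes) summed to 84.3 to 153 FPKM in vehicle and 107 to 147 in palbociclib tumors. In anti-PD-1 tumors they were at 122 to 281 FPKM and in combination tumors at 68.4 to 97.9. Skin markers reached 360 FPKM in palbociclib 2, fat markers 139 in combination 1 and muscle markers 147 in palbociclib 3. Of 5 lymph node markers, Ccl21a, Ccl19 and Glycam1 were at 0 in every tumor and the sum did not pass 0.0994. The part of these tissues in the results was not tested. The targeted gene Stk11 was at 7.90 to 11.5 FPKM, and no tumor without the shRNA was analysed here.

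The 8 genes were low in these tumors. Mean FPKM over the 12 tumors was 2.17 for Ccl22, 0.489 for Il10, 0.406 for Il2ra, 0.317 for Ikzf2, 0.224 for Ccr8, 0.0968 for Foxp3, 0.0578 for Ccr4 and 0.0376 for Ikzf4. The ligand Ccl22 thus stood above the other 7 genes in FPKM as deposited. Low FPKM values are whole multiples of a step (99.5% of 4588 low genes tested, within 0.03 of a whole number). The step was taken as the value of 1 fragment, which gave an estimate of the fragments behind each value. The 12 tumors together held 126 Foxp3 fragments (95% Poisson interval 105 to 150), 31 Ccr4 fragments, 50 Ccr8 fragments and 87 Ikzf4 fragments. Il10 had 128, Il2ra 482, Ccl22 1058 and Ikzf2 1084 fragments, and the T cell references Cd3e and Cd8a had 308 and 758. Foxp3, Ikzf4 and Ccr4 therefore rest on at most 20 fragments in any one tumor, as do Ccr8 (at most 11) and Il10 (at most 17). All intervals and floors on fragments cover counting error only and take 1 step as 1 fragment. Foxp3, Ikzf4 and Ccr4 missed the filter of a mean of 0.1 FPKM. Thus 5 of the 8 genes entered the fit of 15350 genes, and these 3 were read from a fit without the filter (22912 genes).

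**Figure D1:**
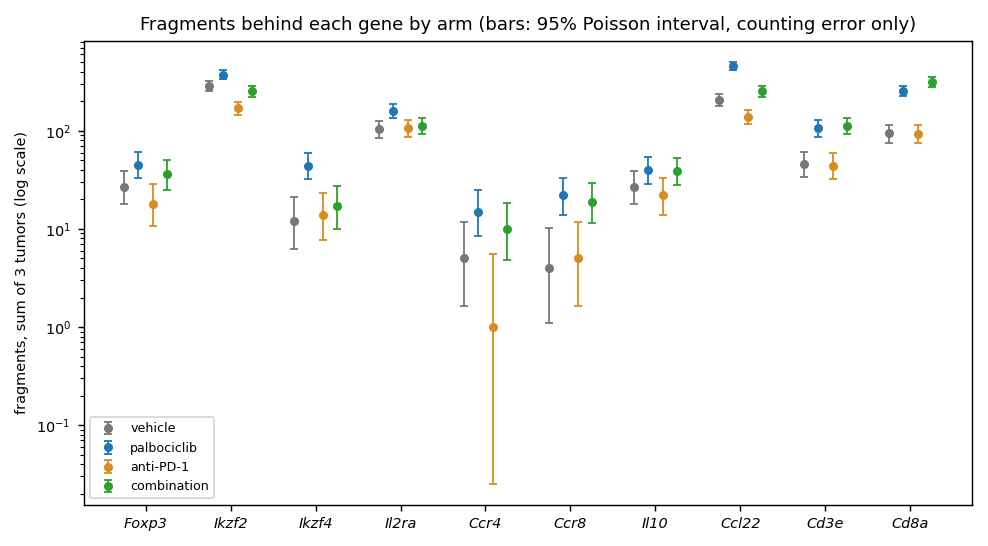
Fragments estimated for each gene, summed over the 3 tumors of an arm, on a log scale with 95% Poisson intervals that cover counting error only. Ccr4 and Ccr8 rest on 1 to 22 fragments per arm, whereas Ikzf2 and Ccl22 rest on 139 to 461.

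Palbociclib tumors had the highest arm mean of all 4 arms for each of the 8 genes, and anti-PD-1 tumors the lowest for 6 of them, but no gene passed the test in any contrast. Values of single tumors overlapped between most arms. They are plotted by arm and then described gene by gene, in the order of transcription factors, receptors, cytokine and ligand.

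**Figure D2:**
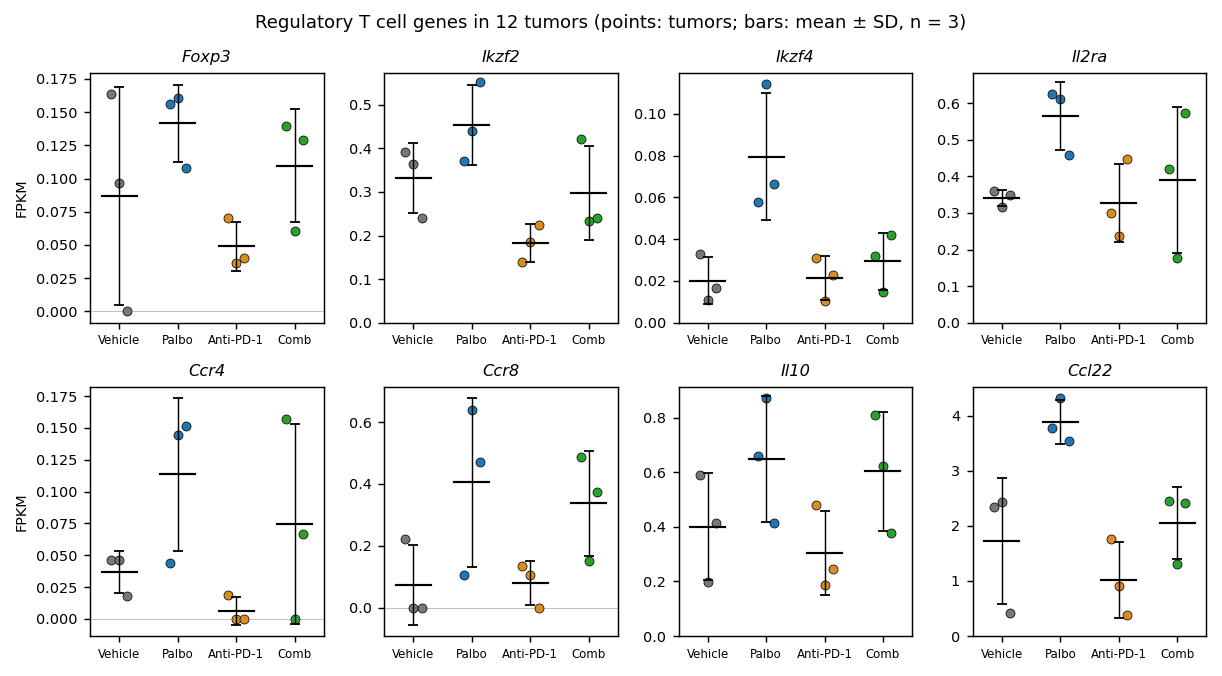
FPKM of each gene in the 12 tumors by arm, where points are tumors and the black lines give mean ± SD (n = 3), with a separate linear scale for each gene. The palbociclib mean is the highest in every panel, and for Ikzf4, Il2ra and Ccl22 all 3 palbociclib tumors lie above all 3 vehicle tumors.

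Foxp3, the lineage factor, was at 0.164, 0.0967 and 0 FPKM in vehicle tumors 1 to 3 and at 0.156, 0.160 and 0.108 in palbociclib tumors. Anti-PD-1 tumors had 0.0701, 0.0365 and 0.0402 FPKM and combination tumors 0.140, 0.0608 and 0.129. Vehicle 3 held no Foxp3 fragment, which allows up to 0.0221 FPKM, and the vehicle range covered that of every other arm, while the anti-PD-1 tumors all lay below the palbociclib tumors. Arm means were 0.0868 ± 0.0823 FPKM (SD, n = 3) in vehicle, 0.142 ± 0.0292 in palbociclib, 0.0490 ± 0.0184 in anti-PD-1 and 0.110 ± 0.0427 in combination tumors. In fragments this was 27, 45, 18 and 36 per arm. The palbociclib effect, the mean of the differences palbociclib minus vehicle and combination minus anti-PD-1 on the log2(FPKM + 0.1) scale, was 0.48 ± 0.23 (SE), with a 95% interval from -0.03 to 0.98 and an adjusted p of 0.337 (limma). Without vehicle 3 the effect was 0.28, and the difference between palbociclib and vehicle alone went from 0.47 to 0.08. The pseudocount of 0.1 is as large as the values themselves, so that log2 differences on this scale understate the change of such low genes.

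Ikzf2, which encodes Helios, was at 0.392, 0.364 and 0.240 FPKM in vehicle and at 0.371, 0.440 and 0.552 in palbociclib tumors. The anti-PD-1 values were 0.139, 0.184 and 0.225 FPKM, and the combination values 0.422, 0.233 and 0.239. All 3 anti-PD-1 tumors lay below the tumors of the other arms in FPKM, with combination 2 next at 0.233. In fragments, combination 2 held 69 and anti-PD-1 3 held 72. The palbociclib effect was 0.42 ± 0.19 (limma, adjusted p = 0.252). The anti-PD-1 effect, defined likewise over both palbociclib levels, was -0.55 ± 0.19 (limma, adjusted p = 0.723), and Ikzf2 was the 1 member with an unadjusted p under 0.05 for it.

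Ikzf4, which encodes Eos, was at 0.0329, 0.0110 and 0.0167 FPKM in vehicle, at 0.0575, 0.114 and 0.0666 in palbociclib, at 0.0310, 0.0104 and 0.0229 in anti-PD-1 and at 0.0318, 0.0148 and 0.0419 in combination tumors. The 3 palbociclib tumors were the highest of the 12. They held 44 of the 87 Ikzf4 fragments, against 12, 14 and 17 in vehicle, anti-PD-1 and combination tumors. The difference from vehicle was 0.57 on the log2(FPKM + 0.1) scale (adjusted p = 0.262 in the limma fit without a filter), and the ratio of mean FPKM was 3.93. Combination minus anti-PD-1 gave 0.09 and combination minus palbociclib -0.46 (limma, adjusted p = 0.960).

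Il2ra, the CD25 chain, had 0.359, 0.317 and 0.349 FPKM in vehicle and 0.624, 0.613 and 0.458 in palbociclib tumors. Anti-PD-1 tumors had 0.30, 0.238 and 0.446 FPKM, and combination tumors 0.421, 0.177 and 0.573. Palbociclib tumors lay above all vehicle and anti-PD-1 tumors in FPKM, and the combination arm ran from below to above every vehicle tumor. In fragments, palbociclib 3 held 45 and anti-PD-1 3 held 49. Mean FPKM was 0.565 ± 0.0927 in palbociclib against 0.342 ± 0.0220 in vehicle tumors, a ratio of 1.65, and 0.390 ± 0.200 in combination against 0.328 ± 0.107 in anti-PD-1 tumors, a ratio of 1.19. The palbociclib effect was 0.36 ± 0.23 (limma, adjusted p = 0.390), with a 95% interval from -0.15 to 0.86. Combination 2 and 3 decided the sign within the anti-PD-1 arms, since the combination minus anti-PD-1 difference of 0.13 went to -0.14 without combination 3 and to 0.50 without combination 2.

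Ccr8, the receptor of Ccl1 and Ccl8, had the largest palbociclib effect of the 8 genes at the pseudocount of 0.1, and among the fewest fragments. Its FPKM was 0.223, 0 and 0 in vehicle, 0.107, 0.640 and 0.470 in palbociclib, 0.136, 0.106 and 0 in anti-PD-1, and 0.486, 0.151 and 0.374 in combination tumors. All 3 combination tumors lay above all 3 anti-PD-1 tumors, while palbociclib 1 (2 fragments) lay within the range of vehicle and anti-PD-1 tumors. Combination 2 and anti-PD-1 1 held 3 Ccr8 fragments each. The tumors at 0 allow up to 0.168 FPKM in vehicle 2, 0.128 in vehicle 3 and 0.140 in anti-PD-1 3. In fragments, the 6 palbociclib-treated tumors held 41 and the other 6 held 9. The palbociclib effect was 1.43 ± 0.44 (limma, adjusted p = 0.125), with a 95% interval from 0.47 to 2.40. It was 3.02 with a pseudocount of 0.01 and 0.34 with 1, where that of Ccl22 was 0.79. Leaving out vehicle 1, the vehicle tumor with 4 fragments, brought it to 1.72 with an adjusted p of 0.0455 (limma), and no other single tumor, left out, brought a member past the threshold for this effect. The number of all genes that passed went from 48 to 692 in the same fit without vehicle 1.

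Ccr4, the receptor of Ccl17 and Ccl22, was at 0.0463, 0.0465 and 0.0177 FPKM in vehicle, at 0.0443, 0.145 and 0.152 in palbociclib, at 0.0187, 0 and 0 in anti-PD-1, and at 0.157, 0 and 0.0664 in combination tumors. The 3 anti-PD-1 libraries held 1 Ccr4 fragment in all, and palbociclib 1, with 2 fragments, lay among the vehicle tumors. The palbociclib-treated tumors held 25 fragments and the others 6. The zero values allow up to 0.0660 FPKM in anti-PD-1 2, 0.0581 in anti-PD-1 3 and 0.0627 in combination 2, above every vehicle value and above palbociclib 1, so that an order among these low tumors was not detectable at this depth. The palbociclib effect was 0.61 ± 0.23 (adjusted p = 0.239 in the limma fit without a filter).

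Il10 had 0.591, 0.198 and 0.414 FPKM in vehicle, 0.659, 0.873 and 0.415 in palbociclib, 0.479, 0.187 and 0.247 in anti-PD-1, and 0.810, 0.623 and 0.377 in combination tumors. Every arm overlapped every other. The mean was 0.626 ± 0.201 FPKM in the 6 palbociclib-treated tumors and 0.353 ± 0.167 in the other 6, a ratio of 1.77, and the palbociclib effect was 0.71 ± 0.28 (limma, adjusted p = 0.197).

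Ccl22, the ligand, was second to Ikzf2 in fragments and the highest in level. It had 2.35, 2.44 and 0.414 FPKM in vehicle, 3.77, 4.33 and 3.55 in palbociclib, 1.75, 0.906 and 0.388 in anti-PD-1, and 2.45, 1.30 and 2.42 in combination tumors. The 3 palbociclib tumors were the highest of the 12 and stood apart from all other arms, and vehicle 3 and anti-PD-1 3 were the lowest. Mean FPKM was 3.88 ± 0.402 in palbociclib against 1.73 ± 1.14 in vehicle tumors and 2.06 ± 0.651 in combination against 1.02 ± 0.690 in anti-PD-1 tumors, ratios of 2.24 and 2.02. The palbociclib effect was 1.27 ± 0.43 (limma, adjusted p = 0.151). The difference between palbociclib and vehicle tumors, 1.43, was 0.67 without vehicle 3, the tumor with the highest neutrophil marker sum. Macrophage markers and the dendritic cell markers other than Fscn1, given above, also had their lowest values in the vehicle and anti-PD-1 arms, and their part in the Ccl22 values was not tested.

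**Figure D3:**
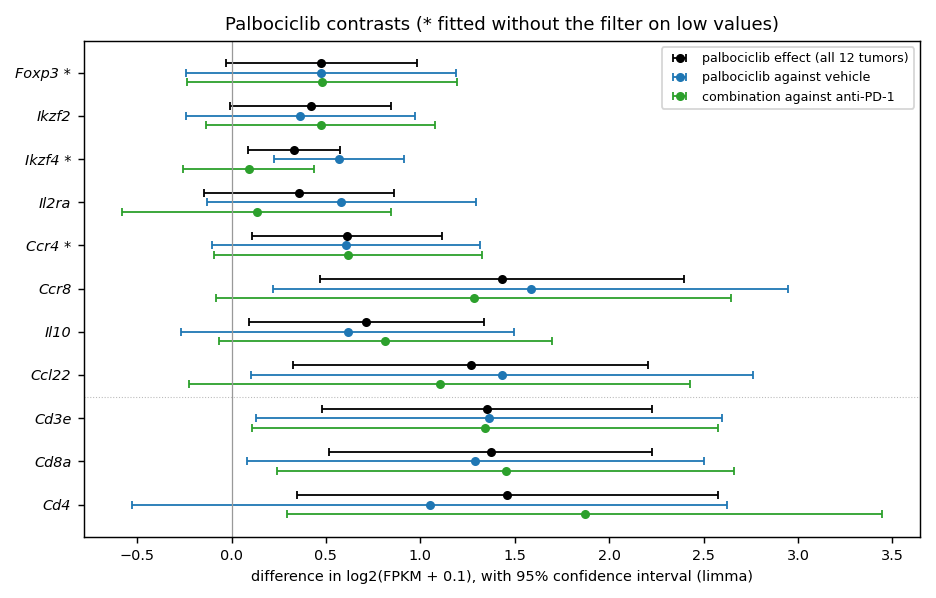
Differences in log2(FPKM + 0.1) with 95% confidence intervals from limma, for the palbociclib effect over all 12 tumors (black), palbociclib against vehicle (blue) and combination against anti-PD-1 (green), with genes fitted without the low-value filter marked by an asterisk. The 8 genes all have positive estimates, from 0.33 to 1.43 for the palbociclib effect, and the T cell genes Cd3e, Cd8a and Cd4 lie at 1.35 to 1.46.

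No member passed an adjusted p of 0.05 in any of the 8 contrasts (limma, Benjamini-Hochberg over all genes tested). For the palbociclib effect, 0 of 5 genes passed against 0.313% of all 15350 genes, and 0 of 8 against 0.048% in the fit without a filter. At an unadjusted p under 0.05, 3 of the 5 (Ccr8, Il10 and Ccl22) were higher, beside 3154 of all genes (20.5%, in either direction), and 5 of the 8 without the filter, where Ikzf4 and Ccr4 joined them, beside 3663 of all 22912 genes (16%). Of the 5, Ccr8 reached the filter of 0.1 FPKM through the palbociclib-treated tumors, at a mean of 0.371 FPKM against 0.0775 in the others. Its place in the filtered count therefore depends on the group where it is high. The estimates were positive for 5 of 5 genes with a median of 0.71, beside 59.8% of all genes with a median of 0.06. Both component contrasts gave positive estimates for all 8 genes, from 0.36 to 1.58 for palbociclib against vehicle and from 0.09 to 1.28 for combination against anti-PD-1, where the value of 0.09 (Ikzf4) turned to -0.00338 with quantile scaling.

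The share of all genes that passed was 0.143% for palbociclib against vehicle, 0.013% for combination against vehicle, 0.00651% for combination against anti-PD-1 and 0.00651% for combination against palbociclib. In the fit without a filter these shares were 0.144%, 0.0131%, 0.00873% and 0.0218%. The lowest adjusted p of a member was 0.262 (Ikzf4) for palbociclib against vehicle and, in the filtered limma fit, 0.273 (Ccr8, log2 difference 1.48) for combination against vehicle. Combination against palbociclib gave negative estimates for all 8 genes, from -0.93 to -0.09, and none passed.

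Means were lower with anti-PD-1 for most of the genes, and none passed the test. The anti-PD-1 effect was negative for 7 of 8 genes and 0.04 for Ccr8, which had -0.02 with a pseudocount of 1. Over all genes 0% passed for this effect with the filter (limma, with 1039 genes at an unadjusted p under 0.05) and 0.0131% passed without it. For anti-PD-1 against vehicle the shares were 0% and 0.00436%, and for the interaction of the 2 drugs 0% and 0.0306%, with 1289 and 879 genes at an unadjusted p under 0.05 in the filtered fits. Ccl22 had an anti-PD-1 effect of -0.77 ± 0.43 and Foxp3 of -0.22 ± 0.23, which was -0.07 without vehicle 1 and -0.42 without vehicle 3.

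The order of the arms was palbociclib, combination, vehicle and anti-PD-1 for Foxp3, Il2ra, Ccr4, Il10 and Ccl22. For Ikzf2 vehicle and combination changed places, and for Ikzf4 and Ccr8 vehicle was last. Most neighbours in these orders overlapped. The neighbours without overlap were palbociclib and combination for Ikzf4 and Ccl22, combination and anti-PD-1 for Ikzf2 (last places) and combination and anti-PD-1 for Ccr8 (middle places). Every palbociclib tumor was above every vehicle tumor for 3 of the 8 genes, against 10% of 22912 genes, and above every anti-PD-1 tumor for 6 of 8 (all but Ccr8 and Il10), against 11.8%. Among these 6, Ccr4 counts only as listed, since palbociclib 1 lay below the values that the anti-PD-1 tumors at 0 allow. For Il2ra, palbociclib 3 held 45 fragments and anti-PD-1 3 held 49. The T cell genes Cd3e, Cd8a and Cd4 were apart between the same 2 arms. So was the leukocyte gene Ptprc, at 2.25 to 3.36 FPKM in palbociclib and 1.19 to 1.44 in anti-PD-1 tumors. This separation is therefore not particular to the 8 genes. Every combination tumor was above every anti-PD-1 tumor for Ikzf2 and Ccr8, 2 of 8, against 8.52%. Vehicle lay above anti-PD-1 in this way for Ikzf2, 1 of 8, against 5.45%. The combination and anti-PD-1 tumors were not apart in fragments before scaling by depth. Combination 2 and anti-PD-1 1 held 3 Ccr8 fragments each, and combination 2 held 69 Ikzf2 fragments against 72 in anti-PD-1 3.

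T cell genes were also higher in mean in palbociclib-treated tumors, with larger estimates than Foxp3. Cd3e, a chain of the T cell receptor complex, was at 1.30, 0.226 and 0.412 FPKM in vehicle, 1.2, 1.26 and 2.14 in palbociclib, 0.728, 0.256 and 0.677 in anti-PD-1, and 2.26, 0.730 and 1.80 in combination tumors. Cd8a, the co-receptor of cytotoxic T cells, was at 0.445, 0.0674 and 0.211, then 0.457, 0.542 and 1.07, then 0.319, 0.104 and 0.231, then 1.10, 0.288 and 1.15 FPKM in the same order. Vehicle 2 and anti-PD-1 2 were low for both, with 5 and 6 Cd3e fragments. Palbociclib effects were 1.35 ± 0.40 for Cd3e (limma, adjusted p = 0.119), 1.37 ± 0.39 for Cd8a (adjusted p = 0.112) and 1.46 ± 0.51 for Cd4 (adjusted p = 0.157), and none of the 3 passed. Of 9 T cell markers, 9 had positive estimates with an unadjusted p under 0.05, beside 20.5% of all genes in either direction, and 0 passed after adjustment. Their summed level was 2.91 to 8.51 FPKM in vehicle, 10.6 to 19.7 in palbociclib, 2.43 to 6.12 in anti-PD-1 and 6.42 to 20.6 in combination tumors.

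Relative to Cd3e, the mean of Foxp3 was lower with palbociclib, and the size and sign of this difference rested on single tumors. Cd3e and Cd8a themselves had palbociclib effects of 1.35 and 1.37, so that a gene without a change also has a negative ratio effect. In limma fits of the ratios over 15349 genes, 80.7% passed for Cd3e and 83.5% for Cd8a. The FPKM ratio of Foxp3 to Cd3e was 0.126, 0.428 and 0 in vehicle, 0.130, 0.127 and 0.0504 in palbociclib, 0.0964, 0.143 and 0.0595 in anti-PD-1, and 0.0618, 0.0833 and 0.0714 in combination tumors. The 4 arms overlapped. In pooled fragments there were 58.7 Foxp3 fragments per 100 of Cd3e in vehicle, 42.5 in palbociclib, 40.9 in anti-PD-1 and 32.1 in combination tumors, and 28.7, 17.6, 19.4 and 11.4 per 100 of Cd8a. The effect of palbociclib on the ratio, as a difference of log2(FPKM + 0.1) values, was -0.88 for Cd3e and -0.90 for Cd8a, each with p = 0.055 in an exact two-sided permutation test (400 relabelings of palbociclib within each anti-PD-1 level, smallest possible p 0.005, not adjusted for the 16 ratios tested). This size depended on the pseudocount, at -0.34 (exact p = 0.605) for Cd3e with 0.01 and -0.61 (exact p = 0.035) with 1. On the FPKM ratio itself, with no log, the effect was -0.0548 (exact p = 0.535) for Cd3e and -0.226 (exact p = 0.385) for Cd8a. Without vehicle 2, which held 5 Cd3e and 8 Cd8a fragments, these became 0.00614 (exact p = 0.875) and -0.018 (exact p = 0.835), and without vehicle 3 they became -0.101 (exact p = 0.07) and -0.377 (exact p = 0.015). The tests without 1 tumor used 200 relabelings. Repeats of a ratio on another scale, with another pseudocount or without 1 tumor were likewise unadjusted.

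**Figure D4:**
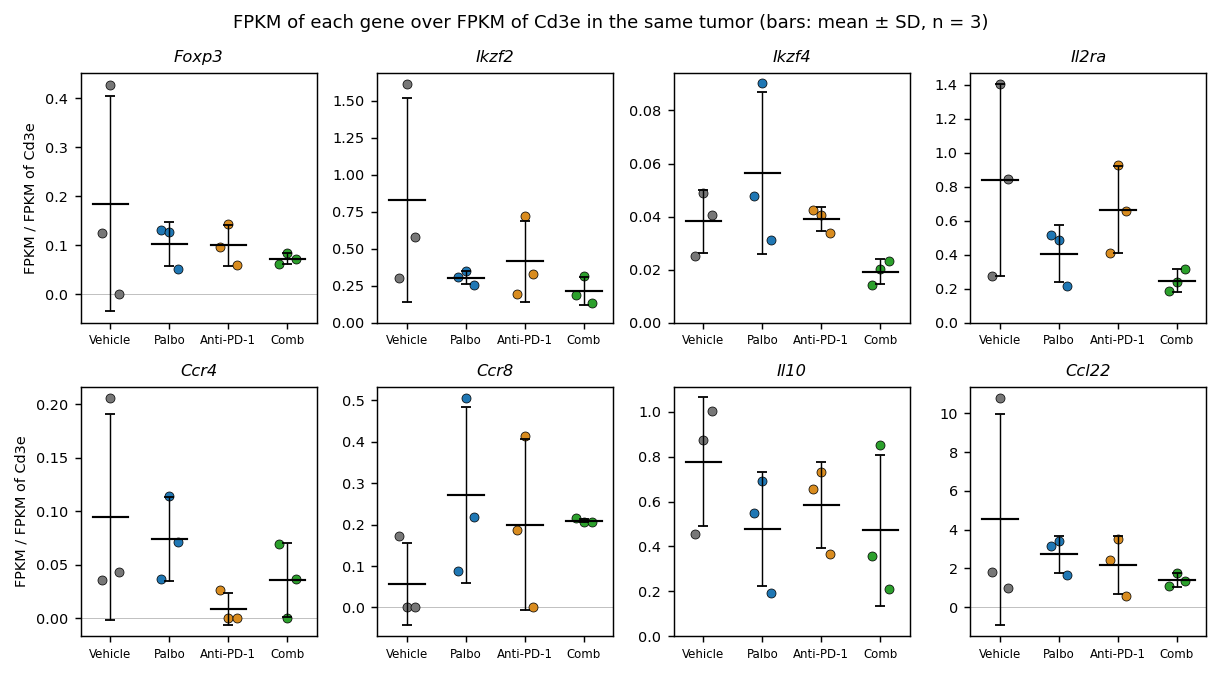
FPKM of each gene divided by the FPKM of Cd3e in the same tumor, by arm, where points are tumors and the black lines give mean ± SD (n = 3). The 3 combination tumors lie close together for Foxp3 (0.0618 to 0.0833), and vehicle 2, with 5 Cd3e fragments, is the highest point for Foxp3, Ikzf2, Il2ra, Ccr4 and Ccl22.

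Il2ra and Ikzf2 had the ratios with the most fragments among the genes of the T cells. The ratio of Il2ra to Cd3e was 0.276, 1.41 and 0.848 in vehicle, 0.519, 0.485 and 0.214 in palbociclib, 0.412, 0.929 and 0.660 in anti-PD-1, and 0.186, 0.242 and 0.317 in combination tumors. All 3 combination tumors were below all 3 anti-PD-1 tumors, while palbociclib and vehicle tumors overlapped. The palbociclib effect on the log2 ratio was -1.0 for Cd3e (exact p = 0.04) and -1.02 for Cd8a (exact p = 0.025), and on the FPKM ratio -0.428 (exact p = 0.04) and -1.32 (exact p = 0.035). For Ikzf2 it was -0.93 (exact p = 0.04) and -0.95 (exact p = 0.035) on the log2 ratio, and -0.364 (exact p = 0.055) and -1.18 (exact p = 0.035) on the FPKM ratio. Vehicle 2, with Ikzf2 ratios of 1.61 to Cd3e and 5.40 to Cd8a, carried much of the FPKM ratio effects. Without it they were -0.169 (exact p = 0.09) and -0.444 (exact p = 0.035) for Ikzf2 and -0.287 (exact p = 0.075) and -0.738 (exact p = 0.075) for Il2ra. With Cd4 as the denominator the log2 ratio effects were -1.10 for Il2ra (exact p = 0.07) and -1.04 for Ikzf2 (exact p = 0.08). These exact permutation p-values are unadjusted over the 16 ratios to Cd3e and Cd8a. They are also unadjusted for the second scale, the other denominators and the repeats without 1 tumor, which used 200 relabelings. They also reflect the higher Cd3e and Cd8a of palbociclib-treated tumors, since 80.7% and 83.5% of all genes passed in the limma fits of the same ratios.

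The ratios of the other genes were less clear. Ikzf4 had log2 ratio effects of -1.02 for Cd3e and -1.04 for Cd8a (both exact p = 0.035) but an FPKM ratio effect of -0.000817 (exact p = 0.97) for Cd3e. It had 26.1, 41.5, 31.8 and 15.2 fragments per 100 of Cd3e in vehicle, palbociclib, anti-PD-1 and combination tumors. Ccr4 gave -0.74 (exact p = 0.06) and -0.76 (exact p = 0.035), and the sign turned for Cd3e with the pseudocount of 0.01 (0.04, exact p = 0.915). Where a gene lies below the pseudocount, its log2 ratio is set mostly by the denominator. Il10 gave -0.64 (exact p = 0.14) and -0.66 (exact p = 0.175). For Ccr8 the effects were 0.08 (exact p = 0.835) and 0.06 (exact p = 0.87), and for Ccl22 -0.09 (exact p = 0.885) and -0.11 (exact p = 0.855), and all 4 of these change sign when single tumors are left out. The 95% intervals for Cd3e were wide, from -1.07 to 1.23 for Ccr8 and from -1.07 to 0.90 for Ccl22 (limma). Ccl22 had 448, 435, 316 and 225 fragments per 100 of Cd3e in vehicle, palbociclib, anti-PD-1 and combination tumors, and Ccr8 had 8.70, 20.8, 11.4 and 17.

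The same ratios were fitted across all genes. Because every gene is divided by the same Cd3e or Cd8a values, 80.7% of 15349 genes passed for Cd3e and 83.5% for Cd8a, and 82.8% and 86% without the filter. Of the 5 members in these fits, 0 passed for either (limma, lowest adjusted p 0.0809 for Cd3e and 0.0687 for Cd8a, both Il2ra). Without the filter 0 of 8 passed for Cd3e and 1 of 8 for Cd8a, Ikzf4 with an adjusted p of 0.0474 (limma). FPKM ratios between genes also carry the transcript length used upstream. The FPKM step taken as 1 fragment implies lengths of 1439 bases for Cd3e and 7713 for Cd8a, where the GENCODE M21 exons span 4080 and 3637. It implies 6722 for Foxp3, 11815 for Ikzf4 and 17331 for Ikzf2, where the exons span 4577, 5995 and 11613. The 7713 bases are more than the whole annotated Cd8a gene (chr6:71373427-71379173). If a step is less than 1 fragment, the fragment numbers of that gene are too high, which was not tested. The FPKM levels, their order between genes and the levels of the ratios depend on the lengths used upstream. So do the filter of 0.1 FPKM and the size of effects on log2(FPKM + 0.1). The order of the tumors for the FPKM of 1 gene or for 1 FPKM ratio does not.

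The signalling partners of the 8 genes were examined as a list of 10 genes, 8 of which passed the filter. Of these 8, 7 had positive palbociclib effects, 5 with an unadjusted p under 0.05 (beside 20.5% of all genes), and 0 passed after adjustment (limma), with a median of 0.48. Il2, the growth factor of regulatory T cells made by other T cells, was listed at 0 in all 3 vehicle tumors and held 16 fragments in the 12 tumors, with 5 in palbociclib, 3 in anti-PD-1 and 8 in combination tumors. Its estimate in the limma fit without a filter was 0.83 ± 0.19 (adjusted p = 0.117). The receptor chains that pair with CD25 had effects of 0.52 ± 0.21 for Il2rb (adjusted p = 0.214) and 0.44 ± 0.12 for Il2rg (adjusted p = 0.105), and the signal transducers Stat5a and Stat5b had 0.13 ± 0.11 and -0.13 ± 0.07. Il10ra, the ligand-binding chain of the interleukin-10 receptor, had 2.49, 1.93 and 1.11 FPKM in vehicle, 2.80, 4.17 and 3.55 in palbociclib, 2.35, 0.948 and 1.01 in anti-PD-1, and 3.72, 1.49 and 3.93 in combination tumors. The palbociclib tumors lay above the vehicle tumors for Il10ra, and combination 2 lay among the anti-PD-1 tumors. Its effect was 0.99 ± 0.30 (limma, adjusted p = 0.125), beside 0.11 ± 0.12 for the shared chain Il10rb.

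Other ligands of Ccr4 and Ccr8 also had their highest arm mean in palbociclib tumors. Ccl17, the second ligand of Ccr4, had 0.881, 0.253 and 0 FPKM in vehicle, 1.2, 1.44 and 0.941 in palbociclib, 0.306, 0 and 0 in anti-PD-1, and 0.852, 0 and 0.481 in combination tumors. As with Ccl22, the 3 palbociclib tumors were the highest of the 12. The effect was 1.61 ± 0.67 (limma, adjusted p = 0.212) on 52 fragments. Ccl8, a mouse ligand of Ccr8 made mainly by macrophages, was far higher in level, at means of 158 ± 70.8 FPKM in vehicle, 276 ± 76.0 in palbociclib, 95.6 ± 50.2 in anti-PD-1 and 249 ± 137 in combination tumors (effect 1.09 ± 0.37, limma, adjusted p = 0.152). Ccl1, the other Ccr8 ligand, held 22 fragments in all, and its effect was 0.26 ± 0.27.

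A list of 22 other genes used to describe regulatory T cells in tumors was mixed in direction. Of the 19 that passed the filter, 13 had positive and 6 negative palbociclib effects, 7 and 3 of them with an unadjusted p under 0.05 (beside 20.5% of all genes), and 0 passed after adjustment (limma), with a median of 0.16 beside 0.06 over all genes. The lowest adjusted p was that of Irf4, a transcription factor of effector regulatory T cells, activated T cells and dendritic cells (1.5 ± 0.38, adjusted p = 0.0911). Its mean FPKM was 0.160 ± 0.153 in vehicle, 0.586 ± 0.202 in palbociclib, 0.0906 ± 0.0240 in anti-PD-1 and 0.541 ± 0.511 in combination tumors. The interleukin-35 subunit Ebi3 (1.24), the receptors Tnfrsf18 (GITR, 0.96), Tnfrsf4 (OX40, 0.82), Icos (0.67) and Nrp1 (0.66) and the factor Batf (0.75) were the other genes with an unadjusted p under 0.05 and a positive effect. On the negative side were Lrrc32 (GARP, the carrier of latent TGF-beta, -0.85 ± 0.23, adjusted p = 0.102), Nt5e (CD73, -0.66) and the checkpoint receptor Tigit (-0.37). Arm means ran from 5.04 to 7.57 FPKM for Tigit and from 0.525 to 1.24 for Lrrc32, beside 0.553 to 1.60 for Cd3e. Which cells these values come from was not tested. Ctla4, a checkpoint receptor that regulatory T cells carry at high level, had means of 0.738 ± 0.567, 0.350 ± 0.0844, 0.385 ± 0.146 and 0.335 ± 0.275 FPKM in vehicle, palbociclib, anti-PD-1 and combination tumors, with an effect of -0.52 ± 0.38 (adjusted p = 0.447).

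The 4 genes of that list with the highest level were Capg, Tnfrsf1b, Il1rl1 and Tnfrsf9, all of them above Cd3e in mean FPKM. Capg, an actin capping protein that macrophages and tumor cells also express, had arm means of 53.0 ± 8.98 (vehicle), 56.2 ± 4.14 (palbociclib), 60.4 ± 15.9 (anti-PD-1) and 57.1 ± 3.84 FPKM (combination), with an effect of 0.02 ± 0.12. Tnfrsf9 (4-1BB) had 14.8 ± 13.4, 8.13 ± 3.44, 17.7 ± 9.74 and 5.76 ± 1.80 FPKM in the same order, with an effect of -0.98 ± 0.47 (limma, adjusted p = 0.261). Tnfrsf1b (TNF receptor type II) and Il1rl1 (ST2, the interleukin-33 receptor) had effects of 0.21 ± 0.14 and 0.16 ± 0.28. None of these receptors is specific to regulatory T cells.

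Across the 12 tumors the 8 genes varied together to differing degrees. Pearson's r of log2(FPKM + 0.1) over the 28 pairs ran from 0.323 to 0.903 with a median of 0.638, as a description over tumors that share arms and libraries. The highest was between Foxp3 and Ccl22 (r = 0.903), and it was 0.854 on deviations from the arm means. By ranks (Spearman's rho) this pair had 0.797, and the highest pair was Ikzf4 and Il2ra with 0.853. Vehicle 3, with no Foxp3 fragment and 0.414 FPKM of Ccl22, was low for both genes, and its part in this r was not tested. For Foxp3, r was 0.819 with Cd4, 0.674 with Cd3e and 0.591 with Cd8a, and 0.862 with the macrophage gene Adgre1 (F4/80) and 0.803 with Ccr7. The r of Foxp3 was thus higher with Cd4 than with Cd8a, and higher with Ccl22 and Adgre1 than with any of the 3 T cell genes.

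The genes most alike to each member were named by Pearson's r over the 12 tumors among 12422 genes with a mean of at least 0.5 FPKM. For Foxp3 they were Tnfrsf11a (RANK, the receptor of RANKL, r = 0.962), Pcyt1a (phosphatidylcholine synthesis, 0.951), Cd300lh (0.940), Sh3tc1 (0.936) and Pld3 (a lysosomal exonuclease, 0.935). For Ikzf2 they were Ctso (cathepsin O, 0.963), H2-M3 (0.929) and Clec2d (0.895), and for Ikzf4 Cass4 (0.929), Ccdc71l (0.914) and Scamp2 (0.911). Il2ra was most like the class I gene H2-K1 (0.897), Tnfrsf14 (HVEM, 0.879) and Csf2rb2 (0.878). Among the receptors, Ccr4 was most like Cst7 (cystatin F, 0.963), Rassf5 (0.943) and Tnfrsf18 (0.927), and Ccr8 most like Shq1 (0.943), Tnfrsf21 (0.937) and Ciita (the class II transactivator, 0.936). Il10 was most like Cdkl2 (0.934), Cenpc1 (0.916) and Zfp689 (0.890). Ccl22 was most like Pik3r6 (a regulatory subunit of PI3K gamma, 0.964), Clec10a (a lectin of macrophages and dendritic cells, 0.950) and B4galnt1 (0.943). These are the highest of 12422 values over 12 tumors and are given as a description.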

How the data were processed

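Bulk RNA-sequencing of 12 mouse tumors (3 per arm) was read from 1 table per tumor. The authors deposited FPKM values. Their processing notes name HISAT2 and GRCm38/mm10, and the counting tool, strand setting and annotation are not given in the sources used here. Of 34745 entries, 67 share a symbol with another, of which the highest in mean was used. Arms came from the treatment label. The members and lists were chosen with earlier results of these data known. Named genes were the 8 members, their denominators, 10 partners, 22 other regulatory T cell genes with the 4 highest in level, those of lowest p, and the 5 (Foxp3) or 3 most alike genes. limma 3.58.1 (R 4.3.3, trend) was fitted on log2(FPKM + 0.1) with 1 mean per arm, for genes with a mean of at least 0.1 FPKM, with Benjamini-Hochberg adjustment. On simulated data for the palbociclib effect over 15350 genes, 183 of 200 genes changed by 1 log2 unit were recovered. Ratios were tested with exact permutation tests. Fragment numbers were estimated from FPKM steps, with 1 step taken as 1 fragment, at about 14800000 to 20200000 fragments per tumor. FPKM, not counts, were tested. Alternatives were pseudocounts of 0.01 and 1, filters, quantile scaling, no trend, a replicate block, other denominators and leaving out each tumor. The unfiltered fits under other settings, the dendritic sum without Fscn1 and the ratios without a log, also without each tumor, were added after the data were seen. Positions came from GENCODE M21.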

Additional observations from a re-analysis of the deposited data

How the results depend on the processing

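No member passed the palbociclib effect under another pseudocount, filter, scaling or variance model, and without 1 tumor the number ran from 0 to 1 (Ccr8, without vehicle replicate 1). For ratios to Cd3e, 0 of 5 became 2 with a pseudocount of 1, 1 with Cd3d, Cd3e and Cd3g as denominator and 0 to 2 without 1 tumor (2 without vehicle replicate 1). For Cd8a it became 1 without the filter and 1 with the Cd3 genes, and 0 to 2 without 1 tumor (1 without vehicle replicate 1, 2 without combination replicate 2). Without the filter, Ikzf4 (limma, adjusted p = 0.0267) and Il2ra (0.0397) passed with the Cd3 genes as denominator. Beside these counts, 80.7% of all genes passed the main fit for Cd3e and 83.5% that for Cd8a, with 86% for Cd8a without the filter. The counts are therefore no trait of the members. The pseudocount, which limits Foxp3, Ikzf4 and Ccr4, moved the Foxp3 palbociclib effect from 0.08 (pseudocount 1) to 1.19 (0.01). Signs turned as follows, and the cause was not tested. Combination against anti-PD-1 was -0.00338 for Ikzf4 with quantile scaling and -0.14 to 0.50 for Il2ra without 1 tumor. The anti-PD-1 effect on Ccr8 was -0.0242 with a pseudocount of 1 and -0.23 to 0.33 without 1 tumor. The ratio of Ccr4 to Cd3e was 0.0406 with a pseudocount of 0.01 and 0.00298 with no log. With a pseudocount of 1 the ratio effects were -0.34 (Ccr8) and 0.10 (Ccl22) to Cd3e and -0.16 (Ccr8) and 0.29 (Ccl22) to Cd8a. Ccr8 had -0.0266 with Cd4 and -0.0676 with the Cd3 genes as denominator. Without 1 tumor the ranges were -0.20 to 0.35 (Ccr8) and -0.42 to 0.34 (Ccl22) to Cd3e, and -0.18 to 0.28 (Ccr8) and -0.49 to 0.31 (Ccl22) to Cd8a. The FPKM ratio effects ran from -0.101 to 0.00614 for Foxp3 to Cd3e, from -0.00928 to 0.00552 for Ikzf4 to Cd3e and from -0.0355 to 0.00153 for Ikzf4 to Cd8a. Deviations from the arm means had correlations of -0.213 to 0.453 in 18 same-number pairs of tumors (median 0.0277, 7 above 0.1). In 36 other-number pairs they were -0.353 to 0.309 (median -0.0131, 9 above 0.1). Whether replicate numbers pair the tumors was not tested. With the replicate block 0 members passed, and 129 genes of all passed the palbociclib effect in place of 48 (38 higher). That number was 0 without the trend, 44 (28 higher) with quantile scaling, 11 without the filter, and 0 to 758 without 1 tumor (highest without anti-PD-1 replicate 1).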
